A study of Mus musculus with 21 samples.

Results

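The fibrillins Fbn1 and Fbn2, the 4 latent TGF-beta binding proteins Ltbp1 to Ltbp4, elastin (Eln) and fibronectin (Fn1) were followed across all 21 libraries. They are 8 of the 23827 rows of each table, were chosen by gene symbol, and each symbol had 1 row. The choice was made with earlier results of these data in view. The kidney translatome against the transcriptome was among those results, so the 8 genes are described there without a test. Libraries of that comparison are used again in later tests, and the part of the choice in those was not tested.

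Every embryo was at embryonic day 14.5 and carried 1 Cre-activated allele of mCherry-tagged ribosomal protein L10a, Gt(ROSA)26Sor-mCherry-Rpl10a+/-, under a ubiquitous promoter, in a line from 1 targeted embryonic stem cell clone. The ribosomes of recombined cells can then be pulled out with their mRNA, by translating ribosome affinity purification, and this ribosome-bound RNA is called a translatome; a transcriptome is the total RNA of the tissue. Sox2Cre+/- tags all cells of the embryo proper and gave the brain transcriptome, brain translatome, kidney transcriptome and kidney translatome, where brain stands for forebrain. Cdh5CreERT2+/-, induced with tamoxifen, tags endothelial cells (EC) and gave the brain EC and kidney EC translatomes, and Emx1Cre+/- tags the descendants of the dorsal forebrain progenitors and gave the Emx1-lineage translatome. Each of the 7 groups had 3 libraries, and per the study's sample sheet each library came from several organs, pooled over embryos.

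Fibrillins are very large secreted glycoproteins that polymerise into microfibrils. Microfibrils carry the elastin of elastic fibres, and they also hold the latent form of the growth factor TGF-beta in the matrix through latent TGF-beta binding proteins, which bind its propeptide covalently (LTBP-1, LTBP-3 and, less well, LTBP-4) or not at all (LTBP-2). Fibronectin forms the fibrillar network on which fibrillin and LTBP-1 are first laid down. In blood vessels, the elastic fibres are mostly known as products of mural cells, while endothelial cells make basement membrane and fibronectin.

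The genes are long. In GENCODE vM21 on GRCm38 their RefSeq-matched transcripts have 28 to 66 exons, against a median of 8 over 26578 coding transcripts, and coding lengths of 2580 (Eln) to 8721 nt (Fbn2), against a median of 1281 nt. Fbn1 is at chr2:125300594-125507993 on the minus strand, with 66 exons and a coding length of 8619 nt. Fbn2 has 65 exons. Ltbp1 is at chr17:75005568-75392512 (plus strand), Ltbp2 at chr12:84783212-84876532 (minus), Ltbp3 at chr19:5740904-5758532 (plus) and Ltbp4 at chr7:27305136-27337692 (minus). Eln is at chr5:134702593-134747323 and Fn1 at chr1:71585520-71653200, both on the minus strand. Ltbp1 and Ltbp4 each have a long and a short transcript that start at different promoters, and their reads were counted together.

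Because the purified RNA is RNA that ribosomes hold, the sequence around the start codon is shown for 7 of the genes (GRCm38, sense strand, 12 bases on each side), with the start codon in capitals and the long form first where there are 2.
Fbn1: gccggcggcaccATGcggcgaggaggg
Ltbp1, long: agactgcccgcgATGgcgggagcctgg
Ltbp1, short: caaggcaagttcATGgatactaagctg
Ltbp2: gtggagcgaacgATGgaaagcacctcc
Ltbp3: gtgcggccccggATGcccgggccccga
Ltbp4, long: gcacccgacacgATGcgccggcctggc
Ltbp4, short: ggcgctgcagccATGgcgggcggcgcg
Eln: gtcctccccgagATGgcgggtctgaca
Fn1: catccactcaagATGctcaggggtccg
A purine stands 3 bases before the start codon in 8 of the 10 transcripts of the 8 genes, and in 84.3% of all 26578 coding transcripts. Ltbp3 is the one gene without such a transcript, and it also has the longest 5′ leader of the set, 988 nt with 3 further ATG triplets upstream, against a median leader of 163 nt. Of the 10 transcripts, 8 had no ATG in the leader, against 47.3% of all transcripts. Besides Ltbp3, only Fbn2 had any, with 2 ATG triplets in a leader of 682 nt. These are descriptions of the sequences, and their part in the values below was not tested.

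The libraries held 21760652 to 79231692 reads on genes, and were shallowest in the kidney translatome, with 21760652 to 24605124 reads. The summed level of 8 endothelial markers, among them Cdh5 and Pecam1, was 2349.3 to 2445.5 RPKM in brain EC and 2041.7 to 2338.4 in kidney EC, 115.1 to 131.9 in the brain translatome, 343.0 to 372.0 in the kidney translatome and 6.6 to 7.2 in the Emx1-lineage. RPKM, reads per kilobase of transcript scaled to the reads of the library, is the authors' value and is used here for every level. Brain EC still held neural markers at 349.2 to 461.6 RPKM in sum, against 1859.1 to 1899.5 in the brain translatome, and kidney EC held kidney epithelium and nephron progenitor markers at 75.9 to 93.1, against 377.1 to 392.8. In bulk RNA like this, a change in the number of cells of a type and a change in RNA per cell cannot be told apart. Fold changes below are log2 values from edgeR with their standard error (SE), on read counts, and a change was called at an adjusted p under 0.001.

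The 8 genes spanned very different ranges over the 7 groups. The highest group mean was 101.48 times the lowest for Fbn1, 46.44 times for Fbn2, 12.68 times for Ltbp1, 12.25 times for Fn1, 8.31 times for Ltbp4, 8.18 times for Ltbp2, 4.29 times for Eln and 3.22 times for Ltbp3. The genes differed in where they were highest: Fbn1, Ltbp1 and Fn1 were highest in kidney EC, Ltbp2, Ltbp4 and Eln in brain EC, and Fbn2 and Ltbp3 in neither. These levels are descriptions, in RPKM as mean ± SD with n = 3.

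Fbn1, the main fibrillin of postnatal microfibrils, was at 3.48 ± 0.243 RPKM in the brain transcriptome, 13.5 ± 3.51 in the brain translatome, 13.2 ± 1.11 in the Emx1-lineage, 20.1 ± 1.22 in the kidney transcriptome, 95.7 ± 19.8 in the kidney translatome, 116 ± 16.4 in brain EC and 353 ± 43.5 in kidney EC. The 3 kidney EC libraries, at 310, 353 and 397 RPKM, all lay above every other library. In that order, the brain translatome and the Emx1-lineage overlapped, as did the kidney translatome and brain EC, and the other neighbours did not.

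Fbn2, the fibrillin most abundant in embryonic tissue, was highest in the kidney translatome, at 159 ± 9.15 RPKM, and followed there by kidney EC at 84.6 ± 13.7 and the kidney transcriptome at 64.6 ± 2.49. In the brain it was at 34.7 ± 7.89 in EC, 9.96 ± 0.83 in the translatome, 5.24 ± 0.636 in the transcriptome and 3.42 ± 0.257 in the Emx1-lineage. No 2 neighbours in this order overlapped, so the 7 groups were fully separated for Fbn2.

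Ltbp1, which couples latent TGF-beta to fibronectin and fibrillin, ran from 3.79 ± 0.433 RPKM in the brain transcriptome and 4.12 ± 0.534 in the brain translatome, which overlapped, through 8.94 ± 0.819 in the Emx1-lineage and 17.2 ± 3.34 in brain EC to 30.3 ± 8.28 in the kidney transcriptome, 32.1 ± 8.81 in the kidney translatome and 48.1 ± 5.70 in kidney EC. Its 2 whole-kidney groups overlapped. Ltbp1 was the only one of the 8 whose mean in the Emx1-lineage was over 2-fold that of the brain translatome and did not overlap with it.

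Ltbp2, an LTBP that does not carry TGF-beta and that is known from elastic fibre assembly, was close to absent. Its libraries held 3 to 66 reads, and its highest mean, in brain EC, was 0.18 ± 0.026 RPKM. In the brain translatome the 3 libraries held 3, 3 and 7 reads. At these counts its values carry large errors.

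Ltbp3, which is secreted with latent TGF-beta, had the flattest profile and the reverse order: the kidney and brain transcriptomes were highest and overlapped, at 14.6 ± 0.215 and 14.2 ± 0.381 RPKM. The Emx1-lineage was at 11.0 ± 0.300 and overlapped with the kidney translatome at 10.8 ± 1.44, and the brain translatome, at 7.76 ± 0.631, overlapped with brain EC at 6.39 ± 1.29. Kidney EC was lowest at 4.53 ± 0.443.

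Ltbp4, which helps fibulin-5 to deposit elastin, stood out in brain EC at 89.6 ± 15.9 RPKM, with libraries at 94.9, 71.8 and 102 RPKM. Every other group was below 35 in each library: kidney EC was at 28.4 ± 6.20, the kidney translatome at 21.3 ± 1.91, the kidney transcriptome at 17.1 ± 0.189, and the Emx1-lineage, brain transcriptome and brain translatome at 12.9 ± 1.70, 11.8 ± 0.206 and 10.8 ± 1.51. The last 3 overlapped as neighbours, as did kidney EC and the kidney translatome.

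Eln, the elastic core protein, was also highest in brain EC, at 25.4 ± 4.99 RPKM with libraries at 20.5, 30.5 and 25.3. The kidney transcriptome and translatome followed at 13.2 ± 1.52 and 12.5 ± 2.53. Kidney EC was at 8.43 ± 3.42, with libraries at 5.57, 7.50 and 12.2 RPKM, the widest relative spread of any group for this gene. The groups next to each other in this order overlapped from the kidney transcriptome down to the brain translatome, at 5.93 ± 0.430.

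Fn1, the fibronectin gene, was the most abundant of the 8 in both whole-brain groups, at 25.6 ± 0.879 RPKM in the transcriptome and 18.8 ± 1.80 in the translatome, and in the Emx1-lineage, at 16.8 ± 1.16. It reached 120 ± 20.4 in brain EC, 124 ± 6.01 in the kidney transcriptome, 150 ± 9.84 in the kidney translatome and 206 ± 3.22 in kidney EC. Brain EC and the kidney transcriptome overlapped, and so did the brain translatome and the Emx1-lineage.

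**Figure D1:**
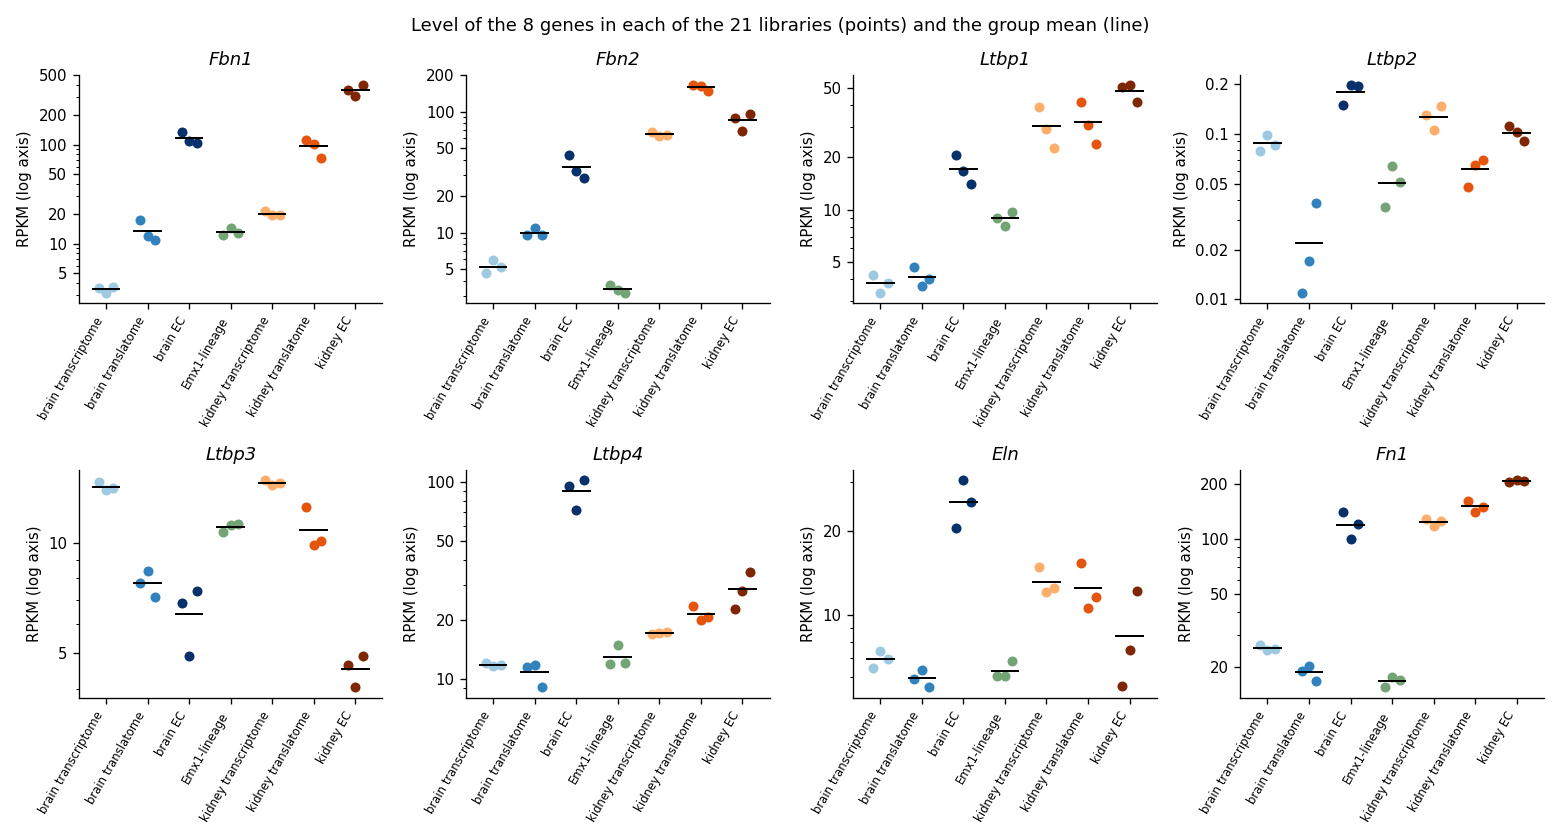
RPKM of each gene (log axis, one panel per gene) in the 21 libraries, grouped on the x axis; points are libraries and the line is the mean of 3. Fbn1, Ltbp1 and Fn1 peak in kidney EC, Ltbp4 and Eln in brain EC, Fbn2 in the kidney translatome, and Ltbp3 is lowest in kidney EC.

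The first comparison asked which of these mRNAs are over- or under-represented on ribosomes, in the translatome against the transcriptome of the same tissue. In the brain, Fbn1 and Fbn2 were enriched in the translatome, Ltbp3 and Fn1 were depleted, as was Ltbp2 on few reads, and 3 of 8 did not pass the test. Of all 19446 rows tested, 18.6% were called enriched and 18.5% depleted, and counts of 2 and 3 among 8 genes are not set apart from that background here. The median log2 change of the 8 was -0.15 against -0.01 over all rows.

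Fbn1 was at 3.59, 3.20 and 3.66 RPKM in the 3 brain transcriptomes and at 17.5, 12.0 and 11.0 in the translatomes of the same 3 tissue samples. Every translatome library was above every transcriptome library, with a log2 change of 1.99 (SE 0.13, adjusted p = 1.6e-08 in edgeR), the 97.9th percentile of all rows. Fbn2 rose from 4.62, 5.89 and 5.21 to 9.51, 10.9 and 9.46 RPKM, a log2 change of 0.95 (SE 0.08, adjusted p = 1.6e-07 in edgeR). Both fibrillins were thus higher in the translatome of each tissue sample. Of 8 endothelial markers 4 were higher in the brain translatome and none lower (median log2 0.51). Of 10 fibroblast and stroma markers 5 were higher and 2 lower (median log2 0.35). Mural markers had 1 higher and 1 lower of 10, and neural markers 2 higher and 2 lower of 8. The part of these markers was not tested.

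Ltbp3 went the other way, from 14.7, 13.9 and 14.1 RPKM to 7.78, 8.38 and 7.12, again without overlap (log2 -0.85, SE 0.07, adjusted p = 6.7e-08 in edgeR). Fn1 fell from 26.6, 24.9 and 25.2 to 19.2, 20.3 and 16.8 RPKM (log2 -0.42, SE 0.06, adjusted p = 5.3e-05 in edgeR). The call on Ltbp2, with 79 reads against 13 in all (log2 -2.04, SE 0.41, adjusted p = 0.00063 in edgeR), was lost with DESeq2 (adjusted p = 0.0039), with at least 10 counts in 3 samples (adjusted p = 0.001 in edgeR, rounded), with libraries of 1 sequencing run (adjusted p = 0.024) and without any of 4 single libraries. Those were transcriptome libraries 1 and 2, with adjusted p of 0.0015 and 0.0022, and translatome libraries 1 and 2, with 0.0065 and 0.0029. Ltbp1 (log2 0.15, SE 0.11), Ltbp4 (log2 -0.10, SE 0.08) and Eln (log2 -0.20, SE 0.08) did not pass, with adjusted p of 0.25, 0.35 and 0.049 in edgeR. The transcriptome and translatome libraries of the same number were paired, since they came from the same tissue sample, and with the pairing as a block the same 5 genes were called, Fbn1 with a log2 change of 1.96.

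In the kidney, the values of the same comparison are a description, since it was in view when the genes were chosen. Fbn1 was at 21.5, 19.5 and 19.3 RPKM in the transcriptomes and 112, 102 and 73.6 in the translatomes, a log2 change of 2.25 (SE 0.13), and Fbn2 went from 67.5, 62.9 and 63.5 to 165, 163 and 148 RPKM, a log2 change of 1.30 (SE 0.07). Both fibrillins were again higher in every translatome. The other log2 changes were 0.11 (SE 0.21) for Ltbp1, -1.05 (SE 0.31) for Ltbp2, -0.43 (SE 0.08) for Ltbp3, 0.32 (SE 0.06) for Ltbp4, -0.07 (SE 0.13) for Eln and 0.28 (SE 0.07) for Fn1. Of all 19336 rows, 14.9% were called higher and 15.8% lower. With the tissue sample as a block, 9496 of the rows were called. No count of the 8 genes is set beside these, since the genes were chosen with the comparison in view. Of 8 endothelial markers 5 were higher in the kidney translatome and none lower (median log2 0.38). Of 10 fibroblast and stroma markers 2 were higher and none lower, and of 8 kidney epithelium and nephron progenitor markers none were higher and 3 lower. Their part was not tested.

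Per tissue sample, the ratio of translatome to transcriptome RPKM of Fbn1 was 4.88, 3.74 and 3.00 in the brain and 5.20, 5.23 and 3.82 in the kidney, so the organs overlapped. The ratio of Fn1 was 0.724, 0.815 and 0.667 in the brain and 1.25, 1.2 and 1.2 in the kidney, on opposite sides of 1 in all 3 samples of each organ. That of Ltbp3 was below 1 in all 6 samples, 0.531, 0.601 and 0.506 in the brain and 0.843, 0.686 and 0.698 in the kidney. The difference between organs was not tested here, and the share of all rows with such ratios is not given. The sequencing run differed between some of these libraries; in the brain, with libraries of 1 run only, the log2 changes were 1.93 for Fbn1, 1.12 for Fbn2, -0.90 for Ltbp3 and -0.49 for Fn1, and in the kidney 1.88 for Fbn1.

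**Figure D2:**
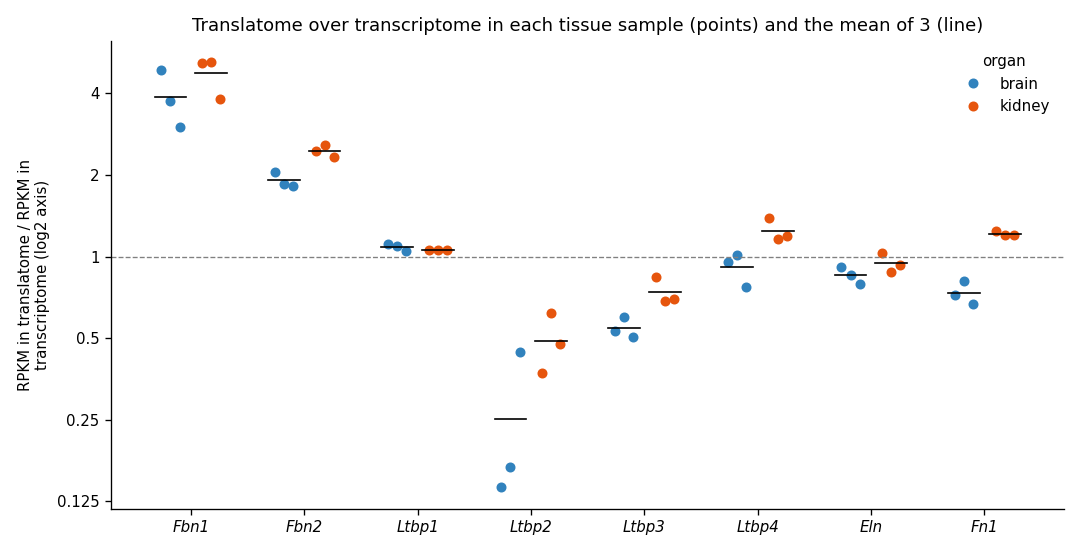
Ratio of the RPKM in the translatome to that in the transcriptome of the same tissue sample (log2 axis) for each gene, in the brain (blue) and the kidney (orange); points are the 3 tissue samples, lines their mean, and the dashed line marks equal levels. Fbn1 lies at 3.00 to 5.23 and Fbn2 above 1 in all samples, Ltbp3 lies below 1 in all samples, and Fn1 lies below 1 in the brain and above 1 in the kidney.

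The genes that work with these 8 were read from lists, and list genes are named where they had the largest called changes in their list among genes with a mean of at least 5 RPKM in the higher group. Among 27 microfibril and elastic fibre partners measured in the brain, 5 were enriched in the translatome, 6 depleted and 16 not called, with a median log2 change of -0.02. Emilin1, a glycoprotein at the elastin-microfibril interface, rose from 5.13 ± 0.620 to 9.03 ± 1.22 RPKM (log2 0.84), and the proteoglycan Dcn rose by a log2 change of 0.78. The hyaluronan-binding proteoglycan Vcan fell from 30.0 ± 1.95 to 6.56 ± 0.690 RPKM (log2 -2.17) and the fibrillin-binding protease Adamts10 from 22.4 ± 2.0 to 5.97 ± 0.590 (log2 -1.87). Of 27 other large secreted matrix glycoproteins, 9 were enriched and 9 depleted. The perlecan gene Hspg2 (log2 1.44) and Col6a3 (log2 1.42) rose, and Vcan, which is in both lists, and the tenascin gene Tnc (log2 -1.25) fell. Of 3 TGF-beta ligands, Tgfb1 was enriched (log2 1.00). Of 9 receptors and transducers, 2 were enriched, the coreceptor Eng (log2 0.58) and Tgfbr2 (log2 0.57), and 1 was depleted, Tgfbr1 (log2 -0.25). Of 11 genes of latent TGF-beta activation and processing, 4 were enriched, with Itgb5 first (log2 0.64), and Bmp1 (log2 -0.59) and Thbs1 (log2 -0.48) were depleted. Of 7 TGF-beta targets, Id1 rose (log2 0.57) and Col1a1 fell (log2 -0.54), and of 11 fibronectin receptors and assembly genes none rose and 2 fell, Itgb1 (log2 -0.40) among them.

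In the kidney, 5 of the 27 microfibril partners were called higher and 3 lower, with Emilin1 (106 ± 3.74 to 238 ± 23.3 RPKM, log2 1.16) and Vcan (80.2 ± 1.00 to 28.0 ± 1.25 RPKM, log2 -1.52) named again. Mfap2, a small microfibril-associated protein, rose from 156 ± 13.4 to 231 ± 5.85 RPKM (log2 0.56). Of the 27 large matrix glycoproteins, 10 were higher and 3 lower, with Hspg2 (log2 2.23) and the laminin Lama5 (log2 2.22) highest. Tgfb1 rose as well (log2 0.76), from 17.1 ± 0.1 to 29.0 ± 1.12 RPKM. Of the receptors and transducers 2 rose, Tgfbr2 (log2 0.48) and Tgfbr3 (log2 0.40). Of the activation and processing genes, 4 rose, with the latent TGF-beta anchors Lrrc32 (log2 0.68) and Lrrc33 (log2 0.56) first, and Bmp1 fell (log2 -1.19). Id1 was the target that rose (log2 0.44), and of the fibronectin receptor and assembly genes talin Tln1 rose (log2 0.74), while Itga8 and Tns1 fell (both log2 -0.32).

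The next comparison asked which of the 8 are enriched in endothelial ribosomes over the ribosomes of the whole organ. In the brain, 7 of 8 rose and Ltbp3 did not pass the test. Over all 19103 rows tested, 24.8% were called higher and 21.4% lower, and the median log2 change was 2.68 for the 8 genes against -0.01 for all rows. The 7 were called in each of the 12 alternative analyses. Of all calls 53.7% were higher; with total counts in place of TMM factors, which moves every gene by -0.297, 36.1% were.

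Fbn1 rose from 17.5, 12.0 and 11.0 RPKM in the brain translatome to 135, 109 and 104 in brain EC (log2 3.39, SE 0.16, adjusted p = 7.9e-10 in edgeR). Ltbp4 rose from 11.5, 11.8 and 9.05 to 94.9, 71.8 and 102 RPKM (log2 3.33, SE 0.14, adjusted p = 1.7e-10 in edgeR). Fn1 rose from 19.2, 20.3 and 16.8 to 140, 99.4 and 120 RPKM (log2 2.96, SE 0.12, adjusted p = 1.7e-10 in edgeR). For each of these, the lowest EC library was several times the highest translatome library.

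Eln followed, from 5.91, 6.36 and 5.50 to 20.5, 30.5 and 25.3 RPKM (log2 2.39, SE 0.13), then Ltbp1 (log2 2.38, SE 0.13) and Fbn2 (log2 2.09, SE 0.13), with adjusted p of 1.7e-09, 3.3e-09 and 1.2e-08 in edgeR. Ltbp2 rose too (log2 3.38, SE 0.38, adjusted p = 3.4e-06 in edgeR), on 13 reads in the 3 brain translatomes and 183 in brain EC. Ltbp3 was at 7.78, 8.38 and 7.12 RPKM in the translatome and 6.85, 4.93 and 7.38 in brain EC, and the 2 groups overlapped (log2 0.01, SE 0.13, adjusted p = 0.95 in edgeR). Its sign depended on the scaling, at -0.29 with total counts.

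Markers of other cells are set beside these changes. The summed level of 10 fibroblast and stroma markers was 195.0 to 292.5 RPKM in brain EC and 130.0 to 149.8 in the brain translatome, and 8 of the 10 were called higher in EC, with folds of mean RPKM from 0.784 (Lum) to 5.62 (Foxc1). The count of 8 ran from 2 to 8 over the alternative analyses. The 10 mural markers summed to 42.2 to 50.2 RPKM in brain EC and 63.5 to 79.9 in the translatome, with 1 called higher (Cspg4) and 5 lower. The 8 neural markers had 7 called lower and the 5 macrophage markers 2 lower. Of 8 kidney epithelium and nephron progenitor markers 2 were called higher in brain EC, Cdh1 (0.99 ± 0.26 to 7.87 ± 4.58 RPKM, log2 3.31) and Ret (0.91 ± 0.12 to 3.53 ± 0.45 RPKM, log2 2.26). The 8 endothelial markers rose 14.3- to 22.3-fold in mean RPKM, while Fbn1, Ltbp4 and Fn1 rose 8.60-, 8.31- and 6.38-fold. No list was at 0. The part of the stromal and epithelial markers in the result was not tested, and brain EC and brain translatome libraries were made in different sequencing runs, so that run and group cannot be told apart.

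In the kidney, 4 of the 8 rose in EC (Fbn1, Ltbp1, Ltbp4 and Fn1), Ltbp3 fell and 3 did not pass. Of all 18940 rows 16.7% were called higher and 15.0% lower, and the median log2 change of the 8 was 0.79 against -0.04 for all rows. Fbn1 rose from 112, 102 and 73.6 to 353, 310 and 397 RPKM without overlap (log2 2.24, SE 0.16, adjusted p = 4.5e-07 in edgeR), in each of the 12 alternatives. Fn1 rose from 161, 141 and 150 to 203, 209 and 206 RPKM (log2 0.81, SE 0.08, adjusted p = 7.2e-06 in edgeR). Ltbp3 fell from 12.5, 9.87 and 10.1 to 4.65, 4.04 and 4.91 RPKM (log2 -0.90, SE 0.11, adjusted p = 4.0e-05 in edgeR).

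Ltbp1 (log2 0.85, SE 0.16, adjusted p = 0.00071 in edgeR) and Ltbp4 (log2 0.78, SE 0.14, adjusted p = 0.00058 in edgeR) were close to the threshold. The call on Ltbp1 was lost without kidney translatome library 2 or 3 or kidney EC library 1 or 2 (adjusted p of 0.0029, 0.0023, 0.0026 and 0.0014), and that on Ltbp4 without kidney translatome library 2 or 3 (0.0025 and 0.0070). Both were lost with total counts, at log2 0.49 and 0.41, and with at least 10 counts in 3 samples, at 0.83 and 0.76. Fbn2 was lower in each EC library (88.4, 69.4 and 95.9 against 165, 163 and 148 RPKM; log2 -0.55, SE 0.12, adjusted p = 0.0020 in edgeR), and passed with total counts, with DESeq2, in a fit of all 21 libraries and without kidney EC library 3 (adjusted p = 0.00051). Eln overlapped (log2 -0.22, SE 0.24, adjusted p = 0.47 in edgeR), and Ltbp2 held 25 reads against 71 (log2 1.09, SE 0.35, adjusted p = 0.021 in edgeR). With total counts the values move by -0.369 and the share of all calls that are higher from 52.7% to 21.7%.

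Markers of other cells were lower in sum in kidney EC. The fibroblast and stroma markers were 373.3 to 535.1 RPKM in EC against 689.2 to 891.2 in the translatome, with 7 of 10 called lower and none higher. Of 10 mural markers 2 were called higher and 6 lower, of 8 kidney epithelium and nephron progenitor markers 7 were lower, and all 5 macrophage and 3 of 8 neural markers were lower. The 8 endothelial markers rose 5.15- to 7.09-fold in mean RPKM, and Fbn1 3.69-fold.

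**Figure D3:**
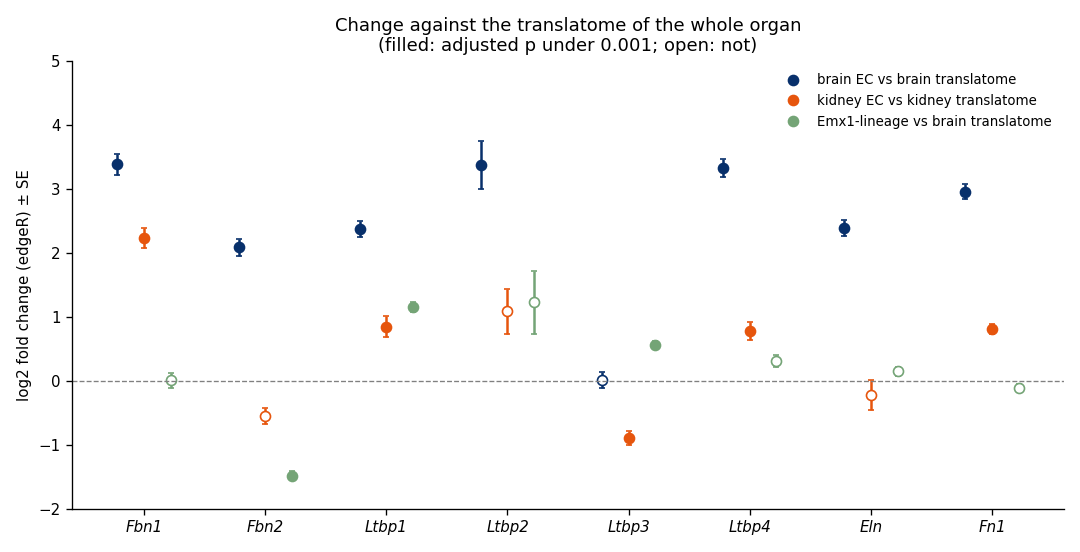
Log2 fold change (edgeR) ± SE of each gene in brain EC, kidney EC and the Emx1-lineage against the translatome of the same organ, with 3 libraries a group; filled points passed an adjusted p of 0.001 and open points did not. In brain EC all genes but Ltbp3 lie at 2.09 or above, in kidney EC Fbn1 stands alone above 2, and in the Emx1-lineage Fbn2 is lowest at -1.49.

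The pathway around the 8 genes differed between the 2 EC comparisons in its counts. In brain EC, 17 of 27 microfibril and elastic fibre partners rose and 3 fell, with a median log2 change of 1.10. Adamtsl2, a fibrillin-1 and LTBP1 binding protein, rose from 2.68 ± 0.550 to 49.9 ± 4.15 RPKM (log2 4.50), and Fbln5, which brings elastin to microfibrils, from 0.93 ± 0.25 to 11.9 ± 1.27 (log2 4.00). Mfap4 fell from 47.3 ± 6.16 to 8.29 ± 0.260 (log2 -2.22) and the crosslinking enzyme Loxl1 from 8.71 ± 0.510 to 4.38 ± 0.810 (log2 -0.70). In kidney EC, 2 of the 27 rose and 12 fell, with a median of -0.85. Emilin1 rose there, from 238 ± 23.3 to 531 ± 68.0 RPKM (log2 1.51), and Mfap4 and Loxl1 fell (log2 -2.76 and -1.94).

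The TGF-beta pathway is given next. Tgfb1, the gene of the ligand TGF-beta 1, rose from 7.41 ± 0.8 to 81.8 ± 6.78 RPKM in brain EC (log2 3.76) and from 29.0 ± 1.12 to 148 ± 14.0 in kidney EC (log2 2.70). Of the 3 ligands, 2 rose and 1 fell in brain EC, with Tgfb2 the other riser (log2 1.23), and 1 rose and 1 fell in kidney EC, where Tgfb3 fell (log2 -1.42). Of 9 receptors and transducers, 6 rose and 1 fell in brain EC and 4 rose and 1 fell in kidney EC. Eng and Acvrl1, the endothelial coreceptor and type I receptor, rose by log2 4.23 and 4.44 in brain EC and 2.93 and 2.49 in kidney EC, and the type I receptor Tgfbr1 fell in both, by log2 -0.60 and -0.57. Of 11 genes of latent TGF-beta activation and processing, 6 rose and 2 fell in brain EC, with Lrrc33 (log2 4.12) and the transglutaminase Tgm2 (log2 3.35) first and the integrins Itgb8 (log2 -1.06) and Itgb5 (log2 -0.59) falling. In kidney EC 3 rose and 4 fell, Lrrc33 (log2 2.84) and Tgm2 (log2 1.39) again first, and Itgb5 (log2 -1.07) and Thbs1 (log2 -0.88) lowest. Of 7 targets, 6 rose in brain EC, Id1 (log2 3.36) among them, while in kidney EC 2 rose, Skil (log2 0.66) and Id1 (log2 0.51), and 2 fell, Tgfbi (log2 -1.59) and Tagln (log2 -1.21).

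The partners of Fn1 are its receptors. Of 11 fibronectin receptors and assembly genes, 8 rose and none fell in brain EC, and the fibronectin receptor subunit Itga5 rose from 4.94 ± 0.550 to 59.2 ± 0.780 RPKM (log2 3.87), with Itga9 next (log2 3.35). In kidney EC 2 rose, Itga5 (25.0 ± 1.24 to 72.2 ± 3.20 RPKM, log2 1.88) and Itgb1 (log2 0.87), and 4 fell, the syndecan Sdc4 (log2 -2.22) and Itga8 (log2 -0.83) among them. Of 27 large matrix glycoproteins, 26 rose in brain EC and 11 in kidney EC, where 5 fell. Hspg2 rose from 19.3 ± 2.97 to 324 ± 7.27 RPKM in brain EC (log2 4.36) and from 255 ± 30.6 to 1190 ± 57.7 in kidney EC (log2 2.58). Lama4 (log2 4.11) came second in brain EC, and Lama5 (log2 2.78) was first in kidney EC, while Col6a1 (log2 -1.06) and Col6a2 (log2 -0.99) fell there.

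**Figure D4:**
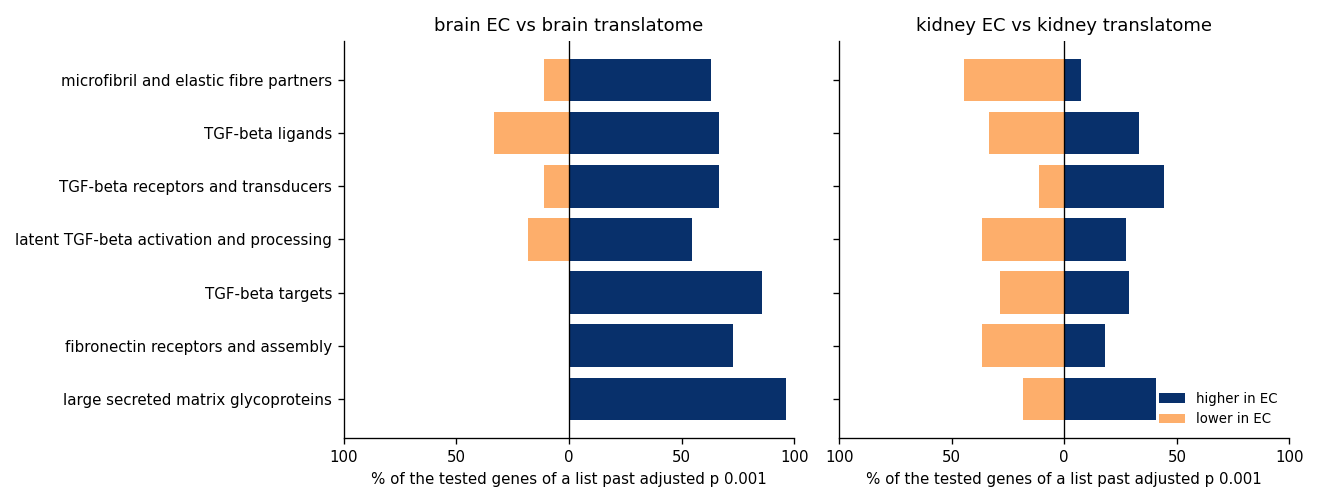
Share of the tested genes of each pathway list that were called higher (dark blue, to the right) or lower (orange, to the left) in EC than in the translatome of the organ, in percent, for the brain and the kidney. In brain EC 17 of 27 microfibril partners lie to the right and 3 to the left, and in kidney EC 2 to the right and 12 to the left.

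Whether the endothelial change differed between the organs was tested as an interaction over the 12 libraries of the 4 groups. It includes brain EC against the brain translatome, where run and group cannot be told apart. The difference, kidney minus brain, was called and negative for 7 of 8 genes, where 8.60% of all 19764 rows were called with a positive and 16.5% with a negative difference, and the median was -2.24 for the 8 against -0.15 for all rows. Fbn1, Ltbp1, Ltbp4 and Fn1 rose in the EC of both organs, by less in the kidney, Fbn2 and Eln rose in brain EC and were not called in kidney EC, and Ltbp3 was not called in brain EC and fell in kidney EC. The difference in log2 change was -2.67 (SE 0.20, adjusted p = 1.2e-08 in edgeR) for Fbn2, -2.64 (SE 0.31, adjusted p = 2.5e-06) for Eln, -2.58 (SE 0.22, adjusted p = 4.2e-08) for Ltbp4 and -2.18 (SE 0.15, adjusted p = 4.9e-09) for Fn1. It was -1.56 (SE 0.23, adjusted p = 3.5e-05 in edgeR) for Ltbp1. For these 5 genes the test of the difference passed in each of 18 alternatives. Fbn1 (-1.18, SE 0.24, adjusted p = 0.00078 in edgeR) and Ltbp3 (-0.94, SE 0.19, adjusted p = 0.00067) were close to the threshold, and each was not called in 10 of 18 alternatives. Ltbp2 (-2.31, SE 0.54, adjusted p = 0.0021 in edgeR) was not called. The kidney translatome libraries used here also belong to the comparison in view when the genes were chosen. The part of that choice in these differences was not tested.

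The calls on Fbn1 and Ltbp3 each hung on single libraries. That on Fbn1 was lost without brain translatome library 2 or 3, brain EC 1 or 2, kidney translatome 1 or 2 or kidney EC 1 or 2, at adjusted p of 0.0011 to 0.0032, and that on Ltbp3 without brain translatome 1 or 3, brain EC 1 or 3, kidney translatome 1 or 3 or kidney EC 1 or 2, at 0.0012 to 0.0027. All 8 endothelial markers also rose less in the kidney, with a median difference of -1.54. The difference was negative and called for 8 of 10 fibroblast and stroma markers, whose median change was 0.82 in brain EC and -1.15 in kidney EC, and for 5 of 8 kidney epithelium markers, with medians of 0.60 and -1.96. Of these 8 kidney epithelium markers, 7 were under 1 RPKM in the brain translatome and 5 in brain EC, so their brain changes rest on low levels. The brain translatome held less of the endothelial markers than the kidney translatome, as given above, and the part of that in the interaction was not tested. Other lists had negative differences as well: 20 of 27 microfibril partners and none with a positive one, Fbln5 (-4.69) among the 20, 2 of 3 ligands, 6 of 9 receptors and transducers, 7 of 11 activation genes, 5 of 7 targets, 9 of 11 fibronectin receptors and assembly genes and 21 of 27 matrix glycoproteins. With DESeq2, 44.5% of all called differences were positive, against 34.3%.

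The direct comparison of the 2 endothelial translatomes does not use the whole organs. Of the 8 genes, 4 were higher in kidney EC, 2 lower and 2 not called, where 16.9% of all 19238 rows were higher and 20.1% lower. Fbn1 was higher in kidney EC (log2 1.57, SE 0.13, adjusted p = 1.6e-06 in edgeR), as were Ltbp1 (log2 1.35, SE 0.12, adjusted p = 3.6e-06), Fbn2 (log2 1.24, SE 0.17, adjusted p = 7.0e-05) and Fn1 (log2 0.74, SE 0.11, adjusted p = 0.00019). Ltbp4 (log2 -1.70, SE 0.17, adjusted p = 7.3e-06 in edgeR) and Eln (log2 -1.63, SE 0.25, adjusted p = 0.00019) were lower. The endothelial translatomes of the 2 organs thus differed in opposite directions in the fibrillins on one side and in Ltbp4 and Eln on the other.

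Ltbp3 (log2 -0.54, SE 0.14, adjusted p = 0.0074 in edgeR) and Ltbp2 (log2 -0.87, SE 0.24, adjusted p = 0.0096) did not pass. Here libraries of the same number deviated together, with correlations of 0.167 to 0.338, and with the pairing as a block Ltbp3 was called as well (log2 -0.53, adjusted p = 0.00047). It was called without brain EC library 2 too (log2 -0.70, adjusted p = 0.00016). The endothelial markers differed in both directions, with 1 of 8 higher (Emcn, log2 1.24) and 3 lower in kidney EC, Esam (log2 -1.09) the lowest, and a median of -0.20. Of 10 mural markers 7 were higher. Of 10 fibroblast and stroma markers 5 were higher and 4 lower, of 8 kidney epithelium markers 6 were higher, all 8 neural markers were lower, and of 5 macrophage markers 2 were lower. Their part was not tested, and run and organ cannot be told apart. Among partners, Adamtsl2 was at 49.9 ± 4.15 RPKM in brain EC and 0.41 ± 0.04 in kidney EC (log2 -6.96), Bgn was lower (log2 -2.72), and Emilin1 was higher, at 61.3 ± 3.85 against 531 ± 68.0 RPKM (log2 3.07), with Loxl2 next (log2 1.85). Tgfb1 was higher in kidney EC (log2 0.81), while the target Ctgf (log2 -2.42) was lower. Itga4, a receptor for an alternatively spliced region of fibronectin, was lower (log2 -2.81), and Itga8 higher (log2 4.26).

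The whole organs gave the background to this. In the translatomes, 6 of 8 genes were higher in the kidney and none lower, where 26.2% of all 19241 rows were higher and 27.2% lower, and in the transcriptomes also 6, where 26.3% and 27.2% of 19841 rows were. In the translatome the log2 changes were 3.79 (SE 0.08) for Fbn2, 2.80 (SE 0.08) for Fn1, 2.79 (SE 0.16) for Ltbp1, 2.62 (SE 0.17) for Fbn1, 0.88 (SE 0.12) for Eln and 0.76 (SE 0.09) for Ltbp4, each past the threshold. The call on Eln was lost without brain translatome library 1 (adjusted p = 0.0023). Ltbp3 (log2 0.28, SE 0.09, adjusted p = 0.015 in edgeR) and Ltbp2 (log2 1.32, SE 0.54, adjusted p = 0.045) did not pass. In the transcriptome the same 6 genes had log2 changes of 3.44 (SE 0.08), 2.09 (SE 0.07), 2.82 (SE 0.18), 2.34 (SE 0.07), 0.74 (SE 0.09) and 0.34 (SE 0.04), in that order, and Ltbp3 of -0.15 (SE 0.04, adjusted p = 0.0081 in edgeR). In a fit of all 21 libraries Eln and Ltbp4 lost their calls in the transcriptome (adjusted p of 0.0020 and 0.038). Eln and Ltbp4 thus lay higher in whole kidney than in whole brain, and lower in kidney EC than in brain EC.

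Of the 27 partners, 22 were higher in the kidney translatome and 1 lower, and all 27 large matrix glycoproteins were higher. In the transcriptome, Emilin1 differed (5.13 ± 0.620 against 106 ± 3.74 RPKM, log2 4.18) and Itga8, Itga9 and Tgfbi by log2 4.78, 4.73 and 4.86. Of 10 fibroblast and stroma markers, 7 were higher in the kidney translatome, and of 10 mural markers 9.

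In the Emx1-lineage, a neural population with endothelial markers at 6.6 to 7.2 RPKM in sum, 2 of the 8 rose over the brain translatome, 1 fell and 5 did not pass. Of all 19006 rows 9.20% were called higher and 12.8% lower. Fbn2 fell from 9.51, 10.9 and 9.46 to 3.70, 3.37 and 3.19 RPKM (log2 -1.49, SE 0.07, adjusted p = 2.3e-10 in edgeR). Ltbp1 rose from 4.70, 3.65 and 4.00 to 9.00, 8.10 and 9.73 RPKM (log2 1.16, SE 0.08, adjusted p = 3.3e-08 in edgeR) and Ltbp3 from 7.78, 8.38 and 7.12 to 10.7, 11.2 and 11.2 RPKM (log2 0.56, SE 0.06, adjusted p = 2.6e-06 in edgeR). These 3 were called in each of the 12 alternatives.

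Fbn1 was at 12.3, 14.4 and 12.8 RPKM in the Emx1-lineage, within the range of the brain translatome (log2 0.01, SE 0.12, adjusted p = 0.95 in edgeR), and Fn1 (log2 -0.11, SE 0.06, adjusted p = 0.21) and Eln (log2 0.15, SE 0.07, adjusted p = 0.12) also overlapped. Ltbp4 did not overlap but missed the threshold (log2 0.31, SE 0.09, adjusted p = 0.014 in edgeR), and Ltbp2 (log2 1.23, SE 0.49, adjusted p = 0.052) rested on 45 and 13 reads. Markers of other cells stand beside these levels: all 8 endothelial, all 10 fibroblast and stroma and all 5 macrophage markers were called lower, as were 9 of 10 mural and 3 of 8 kidney epithelium markers, and of 8 neural markers 3 were higher and 3 lower. Many matrix genes were lower too, 14 of 27 microfibril partners (5 higher) and 21 of 27 large glycoproteins (2 higher). Bgn (45.8 ± 3.74 to 2.5 ± 0.08 RPKM, log2 -4.14) and Col1a2 (25.2 ± 1.33 to 1.71 ± 0.200, log2 -3.84) were among those that fell. Also lower were 6 of 7 TGF-beta targets, 8 of 11 fibronectin receptors and assembly genes, 6 of 11 activation genes and 4 of 9 receptors and transducers. The part of the cell markers in this was not tested. The partners that rose included Mfap4 (log2 0.62) and Loxl1 (log2 0.55), and Lama5 (log2 0.51) and Tnc (log2 0.46) rose among glycoproteins. Tgfb2 rose (log2 0.40) and Tgfb1 fell (log2 -2.29). With total counts 29.9% of all calls were higher, against 41.7%.

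The choice of reference mattered for Fbn1. Against the brain transcriptome, Fbn1 in the Emx1-lineage was higher by a log2 value of 2.08 (SE 0.06, adjusted p = 7.1e-13 in edgeR), and against the translatome by 0.01. The 2 comparisons share the Emx1-lineage libraries. In all, 2 of 8 were higher than the transcriptome there (Fbn1 and Ltbp1, log2 1.39) and 3 lower: Fbn2 (log2 -0.46), Fn1 (log2 -0.44) and Ltbp3 (log2 -0.21, adjusted p = 0.00084 in edgeR). The call on Ltbp3 was lost without any 1 of 5 libraries, brain transcriptome 1 or 3 or Emx1-lineage 1, 2 or 3 (adjusted p of 0.0020 to 0.0090), and that on Fbn2 without Emx1-lineage library 2 (0.0016). Over all 19471 rows 25.4% were higher and 23.8% lower. In the main fits Ltbp3 was thus higher than the translatome and lower than the transcriptome of the same tissue. The call against the transcriptome was lost in 7 of 12 alternatives, among them the fit of all 21 libraries (log2 -0.31, adjusted p = 0.018 in edgeR).

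Against the transcriptome, 7 of 8 genes were higher in brain EC and Ltbp3 lower (log2 -0.82, SE 0.12, adjusted p = 4.0e-05 in edgeR), where 26.8% of 19522 rows were higher and 24.3% lower. Fbn1 was higher by a log2 value of 5.39 (SE 0.12, adjusted p = 1.2e-12 in edgeR), the 99.7th percentile of all rows, against 3.39 over the translatome. In kidney EC 5 were higher and 1 lower, where 22.7% of 19335 rows were higher and 18.4% lower. Fbn1 was at log2 4.56 (SE 0.12), Ltbp4 and Fn1 at 1.17, Ltbp1 at 1.04, Fbn2 at 0.82 and Ltbp3 at -1.25, all past the threshold. The call on Ltbp1 was lost without kidney transcriptome library 2 or kidney EC library 1 or 2 (adjusted p of 0.0011, 0.0023 and 0.0012). With total counts the calls on Fbn2 (log2 0.38, adjusted p = 0.0093) and Ltbp1 (log2 0.60, adjusted p = 0.0066) were lost in kidney EC, and that on Ltbp2 in brain EC (log2 1.02, adjusted p = 0.0014). With total counts the higher share of all calls went from 52.4% to 35.4% in brain EC, from 55.3% to 24.7% in kidney EC and from 51.6% to 39.6% in the Emx1-lineage.

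The genes whose levels over the 21 libraries were most like each member are given as a description, by Pearson's r of log2(RPKM + 1) among 11841 genes; libraries of a group are not independent points, and the 7 groups set most of the pattern. Fbn1 was most like Hspg2, the gene of the basement membrane proteoglycan perlecan, at r = 0.990, with group means of 7.24, 19.3, 324 and 17.2 RPKM in brain transcriptome, translatome, EC and Emx1-lineage and 54.2, 255 and 1190 in kidney transcriptome, translatome and EC. Mesdc1 (r = 0.988) and the desmosomal gene Dsp (r = 0.986) came next. Fbn2 was most like Nr2f6 (r = 0.989), Kdelr2 (r = 0.987) and Oaf (r = 0.986), and Fn1 most like Galnt4 (r = 0.991), the glucocorticoid receptor gene Nr3c1 and the Wnt coreceptor gene Lrp5 (both r = 0.990). Ltbp1 was most like Polh (r = 0.980), Ltbp2 like Vps13d (r = 0.937), Ltbp3 like Ift140 (r = 0.962), Ltbp4 like Wwtr1 (r = 0.980), which encodes the transcriptional coactivator TAZ, and Eln like Sidt2 and Plekhh1 (both r = 0.940). Among the members themselves, Fbn2 and Fn1 (r = 0.936), Ltbp1 and Fn1 (r = 0.910), Fbn2 and Ltbp1 (r = 0.868) and Ltbp4 and Eln (r = 0.840) were most alike, while Ltbp3 was negatively related to Fbn1 (r = -0.744) and to Ltbp4 (r = -0.515).

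A promoter window is shown for Ltbp4, whose mean in brain EC was 3.15 times that of the next group, and for Ltbp3, which was not called in brain EC. Each is the 250 bases up to a RefSeq start site (GRCm38.p6), and matches to 4 short motifs, searched on either strand with overlaps allowed, are in capitals. The GC box was searched as GGGCGG. The TATA box was searched as TATAAA. The ETS core was searched as CCGGAA. The SMAD box was searched as CAGAC. Ltbp4, which has 3 start sites in the table, is read on the minus strand at chr7:27333649-27333898, and Ltbp3 on the plus strand at chr19:5740650-5740899.
Ltbp4: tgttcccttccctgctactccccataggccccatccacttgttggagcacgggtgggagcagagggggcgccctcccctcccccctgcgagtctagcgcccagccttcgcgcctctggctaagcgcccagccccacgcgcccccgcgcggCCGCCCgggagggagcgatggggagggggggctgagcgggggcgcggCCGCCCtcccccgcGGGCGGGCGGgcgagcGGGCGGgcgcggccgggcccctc
Ltbp3: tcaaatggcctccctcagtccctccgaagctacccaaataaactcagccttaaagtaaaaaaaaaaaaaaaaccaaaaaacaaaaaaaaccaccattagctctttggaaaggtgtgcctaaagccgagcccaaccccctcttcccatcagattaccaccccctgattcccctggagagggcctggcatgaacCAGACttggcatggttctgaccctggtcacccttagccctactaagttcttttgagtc
The Ltbp4 window had a GC content of 79.2% with 5 GC box matches, and that of Ltbp3 47.2% with 1 SMAD box match. Among the Ltbp4 windows not shown, that at chr7:27333664-27333913 had 79.2% and 7 GC box matches. That at chr7:27337613-27337862 had 64.4% and 3. Over 32851 windows of this length, 32.7% hold a GC box, 12.4% a TATA box, 12.0% the ETS core and 42.2% a SMAD box, so these letters are common, and a match is not evidence of binding. Their median GC content was 52.4%.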

How the data were processed

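Read counts per gene, as deposited, are reads on RefSeq genes without normalization: the authors sequenced TruSeq RNA libraries, mapped the reads with RUM to GRCm38/mm10 (builds also named in the submitters' processing notes) and counted them with rpkmforgenes, which also gave the deposited RPKM values. The 8 genes and all gene lists were chosen with earlier results of these data known, and part of the scheme follows an earlier analysis of the same files. Groups follow the sample labels, 3 libraries each, and no library was left out.

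For the fold changes, the quasi-likelihood F-test of edgeR (4.0.16, run under R 4.3.3, TMM factors) was applied to the counts over rows with at least 1 count, in 11 comparisons of 3 with 3 libraries and 1 interaction over 12, with Benjamini-Hochberg adjustment over all rows and a threshold of 0.001. The SE is the log2 change divided by the square root of F. On simulated counts with the mean levels and depths of brain EC and translatome, the test recovered all 100 genes changed 4-fold and 84 of 100 changed 2-fold, with 0 false calls. For the interaction, 100 and 28 of 100 were recovered. The simulation gave every gene the same spread, changed only genes with enough reads and held no other difference between groups. It therefore does not give the recovery or the false calls for real genes of uneven spread or few reads. The p-values weigh a change against the spread between the 3 samples of each group, moderated over all genes. Since each sample was a pool of organs, the spread between single embryos was not measured. The main fits did not use the pairing of libraries.

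Transcriptome and translatome libraries of 1 number share a tissue sample per the study's sample sheet, and their deviations from the group means correlated at 0.418 to 0.552 in the brain and 0.53 to 0.634 in the kidney. Alternatives were DESeq2 1.42.0, relative log expression factors, total counts, at least 10 counts in 3 samples, 1 fit of 21 libraries, the replicate block, each library left out in turn, and libraries of 1 sequencing run. Gene models are from GENCODE vM21, start contexts and promoters from GRCm38 and RefSeq; 5 of 8 genes had a promoter entry. The lists cover microfibril and elastic fibre partners, TGF-beta ligands, receptors and transducers, latent TGF-beta activation and processing, TGF-beta targets, fibronectin receptors and assembly, large secreted matrix glycoproteins and 6 sets of cell type markers. Per list and comparison, at most the 2 largest increases and decreases past the threshold with a mean of at least 5 RPKM in the higher group were eligible to be named, and per gene the 3 most alike, among genes of at least 5 RPKM in a group. One eligible list gene is not reported here. Figures were drawn with matplotlib 3.10.9 in Python 3.11.15.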

Additional observations from a re-analysis of the deposited data

Results flagged for a closer look

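The endothelial change, EC against the translatome of the organ, differed between kidney and brain by the interaction test for 7 genes: kidney minus brain, the log2 difference was -1.18 for Fbn1, -2.67 for Fbn2, -1.56 for Ltbp1, -0.94 for Ltbp3, -2.58 for Ltbp4, -2.64 for Eln and -2.18 for Fn1. Of all 19764 rows, 8.60% were called with a positive and 16.5% with a negative difference. The calls on Fbn1 and Ltbp3 were close to the threshold, and each was lost in 10 of 18 alternatives. In brain EC against the brain translatome, run and group cannot be told apart. The median over all rows was -0.15 and over the 8 endothelial markers -1.54. The kidney translatome libraries also belong to the comparison in view when the genes were chosen, and the part of that choice was not tested. The mean ratio of translatome to transcriptome of Fn1 lay below 1 in all 3 brain samples, at 0.735 ± 0.074, and above 1 in all 3 kidney samples, at 1.22 ± 0.026 (SD, n = 3). This difference between the organs was not tested. The kidney comparison was in view when the genes were chosen, and the share of all rows with such a split is not given here.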

How the results depend on the processing

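Of 1215 recomputed log2 changes of the 8 genes, 1106 kept direction and side of the threshold, 55 lost the call, 26 gained it and 28 changed sign. No called value changed sign. The values of kidney translatome against transcriptome are included, as a description. With 1 library left out, the number of the 8 genes called was 4 to 5 in brain translatome against transcriptome. Against the translatome it was 7 in each case in brain EC, 3 to 6 in kidney EC and 3 in the Emx1-lineage. It was 3 to 5 in the Emx1-lineage against the transcriptome and 5 to 7 in the interaction. In kidney translatome against transcriptome, the main fit called 5929 of all rows. The replicate block, which pairs libraries of a tissue sample, called 9496 there, and libraries of 1 run 3736. The kidney EC count was 3 with at least 10 counts in 3 samples. Counts of list genes moved as well over the alternatives. Against the translatome, fibroblast and stroma markers higher in brain EC ran from 2 to 8, and large matrix glycoproteins from 21 to 26. Microfibril partners higher in brain EC ran from 15 to 17, and those lower in kidney EC from 9 to 20. Those higher in the kidney translatome than in the transcriptome ran from 3 to 11. Beside the results named in the report, and leaving out kidney translatome against transcriptome, the block changed the call on Ltbp4 in kidney EC against the translatome (0.76, not called). In the Emx1-lineage against the transcriptome it changed those on Ltbp3 (-0.21, not called) and Ltbp4 (0.29, called). In both comparisons numbers do not pair the libraries. Signs changed as follows, all for small changes. Ltbp1, translatome against transcriptome, was -0.05 in the brain and -0.30 in the kidney with libraries of 1 run, and ran with 1 library left out from -0.01 to 0.26 and from -0.12 to 0.36. Ltbp4 in the brain then ran from -0.18 to 0.01 and Eln in the kidney from -0.25 to 0.04. Ltbp3 in brain EC against the translatome was -0.29 with total counts, -0.02 with the count minimum, -0.01 with the block and -0.11 to 0.16 with 1 library left out. Fbn1 in the Emx1-lineage against the translatome was -0.04 with total counts, -0.01 with the count minimum and -0.12 to 0.24 with 1 library left out. Ltbp3 in kidney against brain transcriptome was 0.03 with total counts. In kidney EC, Eln ran from -0.6 to 0.01 against the translatome and from -0.6 to 0.0 against the transcriptome with 1 library left out, and Ltbp2 against the transcriptome was -0.32 with total counts and -0.01 to 0.21 with 1 library left out. Eln in the Emx1-lineage against the transcriptome was -0.13 with total counts, -0.08 in the fit of 21 libraries and -0.05 to 0.07 with 1 library left out. Of the 3 genes most like each member, 1 to 3 were the same with a pseudocount of 0.1, no RPKM minimum or 7 group means. The cause of these changes was not tested. Ltbp2 held 3 to 66 reads a library, the fewest of the 8 genes.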
